A study of Mus musculus with 8 samples.

Results

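The genes described here belong to the bone morphogenetic protein (BMP) pathway: the ligand genes Bmp4 and Bmp7, the receptor-activated SMAD genes Smad1 and Smad9, the inhibitory SMAD genes Smad6 and Smad7, and the inhibitor of DNA binding genes Id1, Id2, Id3 and Id4. They were chosen by name as known members of the pathway, and all 10 of the 10 listed were among the 13790 genes tested. The RNA was that of neural stem and progenitor cells (NSPCs) that mouse embryonic stem cells had given rise to in neurosphere culture. NFIA-overexpressing cells and control cells grew together in mixed spheres and were then parted by fluorescence-activated cell sorting. The 8 samples, each on its own 1-colour array, formed 4 groups of 2: SN_NFIA (NFIA-overexpressing cells of secondary neurospheres, passage 1, day 12), SN_control (control cells of the same stage), PN_NFIA (NFIA-overexpressing cells of primary neurospheres, passage 0, day 6) and PN_control. All 4 groups thus came from mixed spheres. The sources used here name neither the promoter that drives NFIA, nor the number of clones, nor whether the arrays of a group came from separate cultures, so p-values measure the spread between these samples, which may be technical.

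BMP ligands bind paired serine/threonine kinase receptors, which phosphorylate SMAD1, SMAD5 and SMAD9. These join SMAD4 and switch on target genes in the nucleus, among them the Id genes and the genes of the inhibitory SMADs, which damp the signal. ID proteins lack a DNA-binding domain and sequester E proteins, the partners that proneural basic helix-loop-helix (bHLH) factors need. In neural progenitors BMP signals are known to favour astrocytes over neurons at later stages, and NFIA is known as a factor required for the start of gliogenesis.

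Sample identity limits every value below. In 7 of 8 samples the array in the attached scanner file was not the array in the sample's column of the authors' value table, and the value table was followed. That choice was made after the conflict had been seen. Groups follow the titles, which the source names contradict for 6 samples: these give the NFIA line for the 4 controls and the WT line for PN_NFIA 1 and SN_NFIA 2. On the slide, each passage filled its own row and each cell kind its own columns, so slide position and group cannot be told apart. Nfia itself read 1.70 and 1.62 in SN_NFIA cells, 1.00 and 0.61 in SN_control cells, -0.24 and 0.93 in PN_NFIA cells, and -1.30 and -0.30 in PN_control cells (log2 signal relative to the array's 75th percentile, the scale of all levels below). NFIA groups stood above controls of their passage, but the difference of 1.00 ± 0.32 (SE) missed the test (limma, adjusted p = 0.171). A second Nfia probe read -0.08 and -1.11 in SN_NFIA cells, -1.68 and -3.19 in SN_control cells, -1.88 and -0.88 in PN_NFIA cells, and -3.88 and -2.99 in PN_control cells. Its means differed by 1.84 in secondary and 2.05 in primary neurospheres, without overlap, and it was not tested. The sources used here do not say whether either probe reads the transgene. All 9 NSPC markers were well above background on every array, as were 6 of 6 pluripotent markers, and 7 or 8 of 8 mesenchymal and mural markers.

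**Figure D1:**
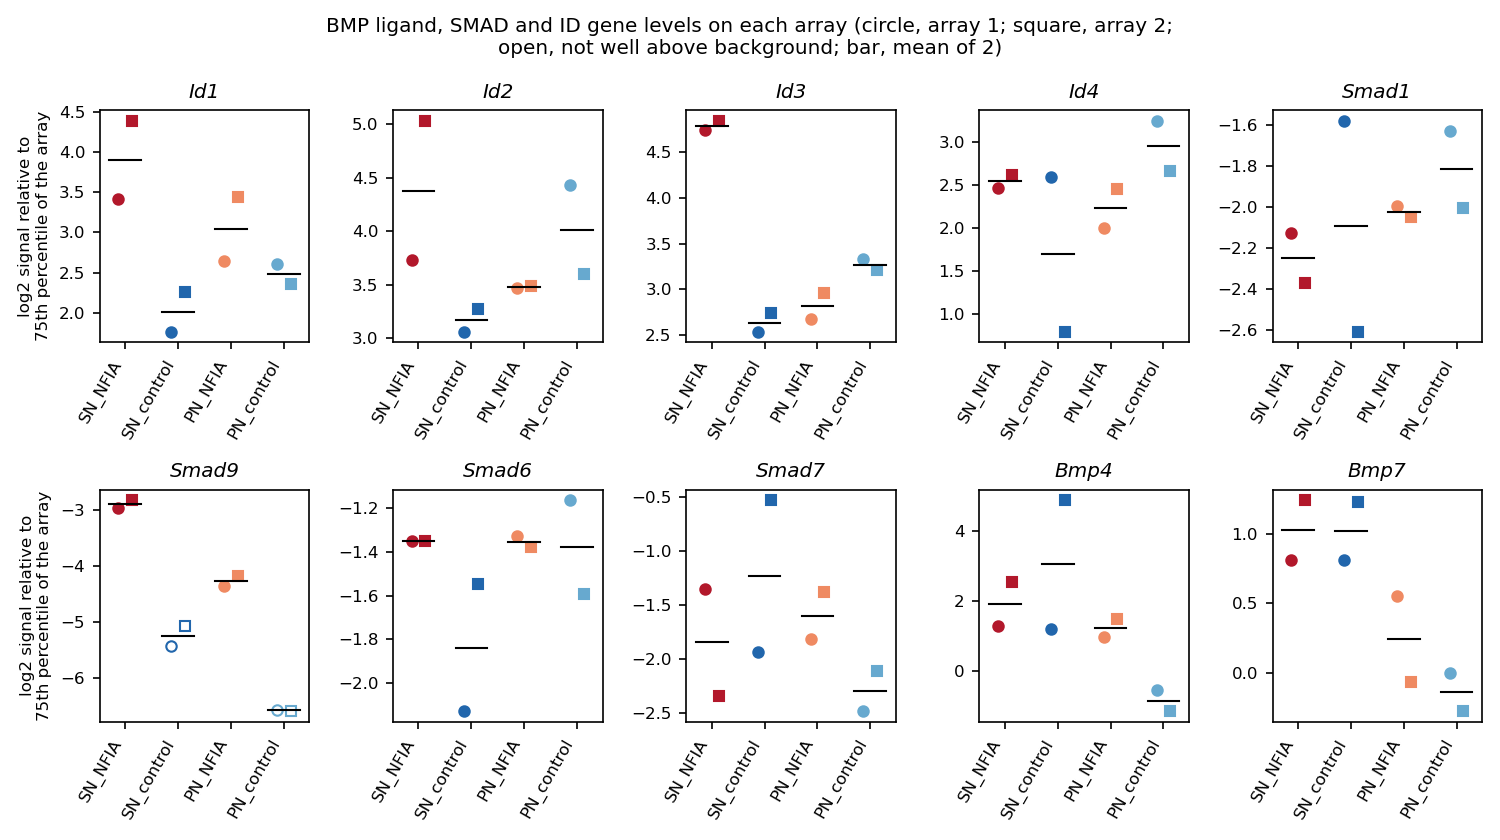
Level of each of the 10 genes on each array, as log2 signal relative to the 75th percentile of the array (vertical axes differ between panels). Circles are array 1 and squares array 2 of a group, bars are means of 2 arrays, and open symbols were not well above background. SN_NFIA stands apart from the other groups for Id3, and all 4 control arrays are open for Smad9.

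Id3 and Smad9 were the genes past the test for NFIA within secondary neurospheres, and their promoter windows are printed here for that reason. The sequences are RefSeq's (build GRCm38.p6), 250 bases before to 50 bases after the start of the gene, for Id3 at chr4:136143572-136143871 and for Smad9 at chr3:54755332-54755631, both on the plus strand. Capitals mark 3 motifs searched on both strands: TTGGC, the half-site that NFI proteins bind (GCCAA on the other strand), GGCGCC, a SMAD1/5-type element, and GTCT, the SMAD-binding element (AGAC on the other strand). No marked motifs overlap in these windows.
Id3: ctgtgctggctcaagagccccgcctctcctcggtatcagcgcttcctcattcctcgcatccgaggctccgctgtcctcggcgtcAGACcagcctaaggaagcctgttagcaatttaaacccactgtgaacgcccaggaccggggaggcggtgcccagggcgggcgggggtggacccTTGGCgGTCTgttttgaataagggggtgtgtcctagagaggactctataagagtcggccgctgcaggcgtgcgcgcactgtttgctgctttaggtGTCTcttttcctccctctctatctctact
Smad9: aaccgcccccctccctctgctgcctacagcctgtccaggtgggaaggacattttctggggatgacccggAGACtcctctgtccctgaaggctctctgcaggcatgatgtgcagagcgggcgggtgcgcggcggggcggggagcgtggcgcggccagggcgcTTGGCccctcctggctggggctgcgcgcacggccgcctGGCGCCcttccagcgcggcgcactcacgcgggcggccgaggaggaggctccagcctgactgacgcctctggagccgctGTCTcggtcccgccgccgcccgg
The Id3 window held 1 TTGGC, 0 GGCGCC and 3 GTCT matches, and the Smad9 window 1, 1 and 2. Such matches are common: of 32841 promoter windows of the same length, 46.7% held TTGGC, 11.9% GGCGCC and 88.0% GTCT. All 7 of the genes with a window in the table (Id2, Id3, Id4, Smad1, Smad9, Smad6 and Bmp4) held TTGGC, and none held the full palindromic NFI site, TTGGC and GCCAA with 5 bases between them, which 0.0365% of all windows held. A match is a description of the letters and says nothing about binding.

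The first question was which genes differ with NFIA in secondary neurospheres. Id3 and Smad9 rose in SN_NFIA cells, 2 of 10 genes, against 0.486% of all genes tested called higher, and 0 of 10 were called lower, against 0.45%. Smad9 passed the filter on dim probes through the NFIA groups alone, so its part in this count is not independent of that filter. SN_NFIA arrays lay above SN_control arrays without overlap for Id1, Id2, Id3, Smad9 and Smad6, 5 of 10 genes, against 19.2% of all genes. All 4 Id genes had positive differences, between 0.85 and 2.16, and the median of the 10 genes was 0.67, against -0.02 over all genes.

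Id3 had levels of 4.74 and 4.85 in SN_NFIA cells, 2.53 and 2.74 in SN_control cells, 2.68 and 2.96 in PN_NFIA cells, and 3.33 and 3.21 in PN_control cells. The SN_NFIA pair lay well above the other 6 arrays, which spanned a narrow range. Against SN_control cells Id3 was 4.47-fold higher in SN_NFIA cells (95% interval 3.02 to 6.6, n = 2 each), a log2 difference of 2.16 ± 0.24 (limma, adjusted p = 0.0221). The call was lost without either SN_NFIA array (adjusted p = 0.0758 without the first and 0.0967 without the second in limma), without SN_control 1 (0.0578) or without either PN_control array (0.058). The difference itself stayed between 2.06 and 2.26. At 2.16 it also missed the test with no filter on dim probes (limma, adjusted p = 0.0503) and with only the groups compared (0.139), and at 2.11 without the arrays of PN_NFIA 1 and SN_NFIA 2 (0.168). By the attached files it was -1.48, and by the source names -1.51.

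Id1, the founding member of the family and a classic direct BMP target, read 3.41 and 4.39 in SN_NFIA cells, 1.77 and 2.26 in SN_control cells, 2.64 and 3.44 in PN_NFIA cells, and 2.61 and 2.36 in PN_control cells. SN_NFIA arrays did not overlap with SN_control arrays. The difference in secondary neurospheres, 1.89 ± 0.42, missed the test (limma, adjusted p = 0.0947), although it passed with normexp background correction (1.94, adjusted p = 0.0480).

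Id2, which is also an inhibitor of bHLH factors, read 3.73 and 5.03 in SN_NFIA cells, 3.06 and 3.28 in SN_control cells, 3.47 and 3.49 in PN_NFIA cells, and 4.44 and 3.60 in PN_control cells. The SN_NFIA arrays differed widely from each other, and both lay above the SN_control arrays. The difference in secondary neurospheres was 1.21 ± 0.47 (limma, adjusted p = 0.291).

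Id4, a family member known to act in neural progenitors, read 2.47 and 2.62 in SN_NFIA cells, 2.59 and 0.80 in SN_control cells, 2.004 and 2.46 in PN_NFIA cells, and 3.24 and 2.67 in PN_control cells. The 0.80 of SN_control 2 alone set the secondary difference of 0.85 ± 0.56 (limma, adjusted p = 0.546), which was -0.05 without that array.

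**Figure D2:**
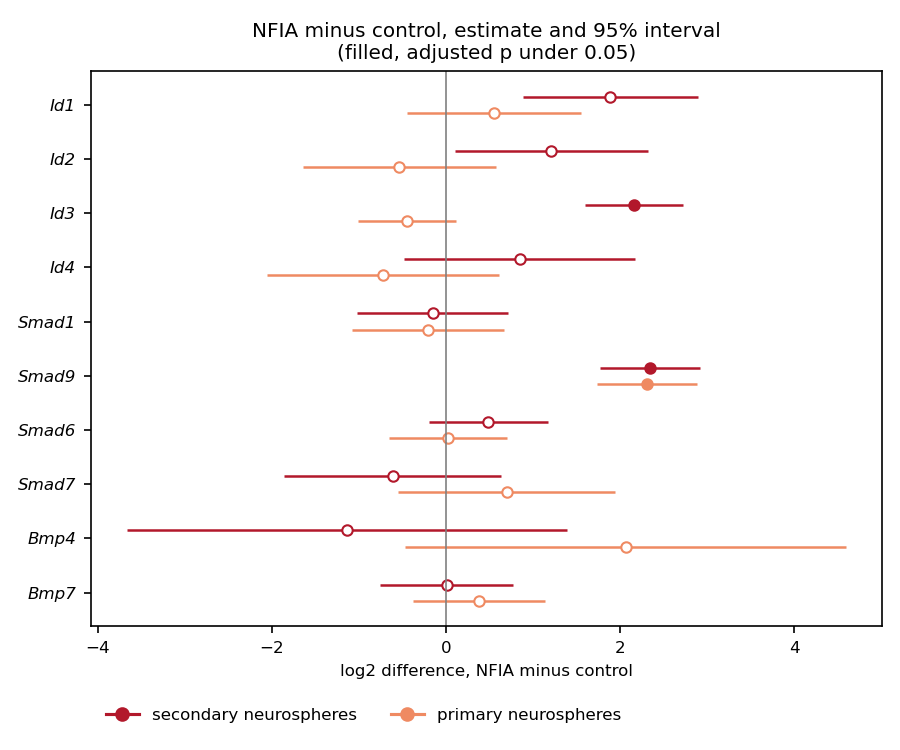
Log2 difference, NFIA minus control, for each gene in secondary and in primary neurospheres, with 95% intervals from limma. Filled symbols had an adjusted p under 0.05: Smad9 in both passages and Id3 in secondary neurospheres. Id2, Id3 and Id4 lie right of 0 in secondary and left of 0 in primary neurospheres.

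In primary neurospheres 3 of the 4 Id genes had differences below 0. The differences between PN_NFIA and PN_control cells were -0.45 ± 0.24 for Id3, -0.53 ± 0.47 for Id2, -0.72 ± 0.56 for Id4 and 0.55 ± 0.42 for Id1, and none passed the test (limma, adjusted p between 0.638 and 0.78). Id2, Id3 and Id4 were lower on both PN_NFIA arrays than on both PN_control arrays, 3 of 10 genes, against 30.1% of all genes. Id2 and Id3 were higher without overlap in secondary and lower in primary neurospheres, 2 of 10 genes, against 2.65% of all genes. Id1, Smad9, Smad7 and Bmp4 were higher without overlap, 4 of 10 genes, against 21.9%. Smad9 alone was called, 1 of 10 genes, against 0.312% of all genes, and this call too is not independent of the filter on dim probes.

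The change in the NFIA effect between passages was tested directly. No gene of 13790 passed, a background of 0%, while 6.75% of genes had an unadjusted p under 0.05. For the Id genes the secondary effect minus the primary effect was positive in 4 of 4, at 2.61 ± 0.34 for Id3 (limma, adjusted p = 0.107), 1.75 ± 0.66 for Id2 (adjusted p = 0.68), 1.57 ± 0.80 for Id4 (adjusted p = 0.851) and 1.34 ± 0.60 for Id1 (adjusted p = 0.782). An effect of NFIA on Id3 that differs between passages therefore was not called.

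Smad9 encodes a receptor-activated SMAD also known as SMAD8. It was past the test for NFIA in both passages. It read -2.97 and -2.82 in SN_NFIA cells, -5.42 and -5.06 in SN_control cells, -4.35 and -4.17 in PN_NFIA cells, and -6.55 and -6.58 in PN_control cells. Both NFIA groups lay above both control groups, and the arrays of a group lay close together. The probe was dim: its background-subtracted signals were 79.3 and 44.9 units in SN_NFIA cells, 7.1 and 12.4 in SN_control cells, 20.8 and 18.4 in PN_NFIA cells, and 4.1 and 3.9 in PN_control cells. It was not well above background on any control array and passed the filter on dim probes through the NFIA groups alone. Its calls for NFIA are therefore not independent of that filter, and its fitted differences and their SEs rest on control values near background. The fold is thus a lower bound, taken against the dimmest signal on each control array that still cleared background by the scanner's flag.

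Over both passages, with the scanner's background subtraction, Smad9 was at least 1.56-fold higher in NFIA cells than in control cells. Its fitted difference was 2.33 ± 0.16 (n = 4 each; limma, adjusted p = 0.00386), and leaving out any array kept the call (adjusted p up to 0.0324). It was 1 of 10 genes called higher, against 1.78% of all genes, with 0 of 10 lower, against 0.189%. Smad9 and Id1 were higher in NFIA cells without overlap in both passages, 2 of 10 genes, against 8.61% of all genes. For Id1 the gap in primary neurospheres was slight, 2.64 in PN_NFIA 1 against 2.61 in PN_control 1. For Smad9 no control value was well above background. Smad9 was at least 1.89-fold higher in secondary neurospheres (2.35 ± 0.24, adjusted p = 0.0181 in limma) and at least 1.28-fold higher in primary neurospheres (2.30 ± 0.24, adjusted p = 0.0233).

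Background correction mattered for this dim probe. With normexp the difference over both passages was 0.41 (limma, adjusted p = 0.279), with 0.51 in secondary and 0.31 in primary neurospheres, and neither passed. These values lie below the lower bounds given above, which in log2 are 0.64, 0.92 and 0.36 in the same order. The bounds thus do not hold under normexp. The call in primary neurospheres was lost without any of the PN_control or PN_NFIA arrays (limma, adjusted p between 0.116 and 0.207) or either SN_NFIA array (0.0523), and that in secondary neurospheres without either SN_NFIA array (0.072 and 0.0854) or either PN_control array (0.058). By the source names the difference over both passages was -1.54.

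Levels of several marker lists differed between the groups beside these genes. Over both passages the markers called for NFIA were Sox7 (2.64 ± 0.26, limma, adjusted p = 0.0122), Prrx1 (1.88 ± 0.24, 0.0145) and Acta2 (1.69 ± 0.31, 0.0415), all higher. They were 1 of 5 endoderm and yolk sac and 2 of 8 mesenchymal and mural markers, against 1.78% of all genes. Sox7 was also called higher in secondary neurospheres (2.96 ± 0.36, limma, adjusted p = 0.0275), against 0.486% of all genes. Its list did not rise as a whole there, with a median difference of -0.29. Sox17 differed by -2.86, Foxa2 and Ttr by -0.29 each and Dab2 by 1.04, all without a call. The summed level of 6 of 6 astrocyte markers was 7.53 to 8.64 (log2) in SN_NFIA cells, 4.42 to 6.91 in SN_control cells, 5.12 to 6.45 in PN_NFIA cells and 3.17 to 3.67 in PN_control cells. That of 6 of 6 neuron markers was 5.08 to 5.40 in SN_NFIA cells, 6.09 to 7.54 in SN_control cells, 6.60 to 6.91 in PN_NFIA cells and 7.27 to 7.31 in PN_control cells. Of both lists, 0 of 6 genes were called for NFIA in secondary, in primary or over both passages (limma). Of all genes, 0.486% were called higher in secondary neurospheres, 0.312% in primary neurospheres and 1.78% over both passages. Called lower were 0.45% in secondary neurospheres and 0.189% over both passages. The summed level of 5 of 5 epithelial markers set SN_NFIA apart, at -0.76 to -0.13 in SN_NFIA cells, 2.54 to 4.10 in SN_control cells, 3.02 to 5.38 in PN_NFIA cells and 2.81 to 3.34 in PN_control cells. In secondary neurospheres 2 of 5, Cdh1 and Cldn6, were called lower in SN_NFIA cells, against 0.45% of all genes. The median difference of the list was -3.60. Of 6 pluripotent markers 1, Fgf4, was called lower there, against 0.45% of all genes, with a list median of -1.69. The summed level of that list overlapped, at 2.21 to 4.36 in SN_NFIA cells and 3.15 to 3.75 in SN_control cells. Nanog and Tdgf1 differed by 0.04 and 0.18. The part of these markers in the Id3 and Smad9 differences was not tested, and in RNA of sorted cell pools fewer cells of a type and less RNA per cell cannot be told apart.

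Smad1, the other receptor-activated SMAD gene listed, read -2.12 and -2.37 in SN_NFIA cells, -1.58 and -2.61 in SN_control cells, -1.995 and -2.05 in PN_NFIA cells, and -1.63 and -2.0007 in PN_control cells. NFIA and control arrays overlapped in both passages, in primary neurospheres only slightly, with PN_NFIA 1 just above PN_control 2. Over both passages the difference was -0.18 ± 0.24 (limma, 95% fold interval 0.597 to 1.31), and it was negative for the second kept probe of the gene in both passages too, at -0.33 in secondary and -0.06 in primary neurospheres.

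Smad6, an inhibitory SMAD that acts mainly on the BMP branch, read -1.35 and -1.35 in SN_NFIA cells, -2.13 and -1.55 in SN_control cells, -1.33 and -1.38 in PN_NFIA cells, and -1.16 and -1.59 in PN_control cells. The NFIA arrays of both passages lay within a narrow range, and the control arrays spread around or below it. The difference over both passages was 0.25 ± 0.21 (limma, adjusted p = 0.58).

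Smad7, which inhibits both the BMP and the TGF-beta branch, read -1.35 and -2.34 in SN_NFIA cells, -1.93 and -0.53 in SN_control cells, -1.82 and -1.38 in PN_NFIA cells, and -2.48 and -2.11 in PN_control cells. The groups overlapped in secondary neurospheres and not in primary ones, where the difference was 0.70 ± 0.53 (limma, adjusted p = 0.75).

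Of the ligands, Bmp4 had the widest range over the 8 arrays. It read 1.28 and 2.54 in SN_NFIA cells, 1.22 and 4.87 in SN_control cells, 0.98 and 1.48 in PN_NFIA cells, and -0.54 and -1.13 in PN_control cells. PN_control arrays were the lowest and SN_control 2 the highest. The difference between PN_NFIA and PN_control cells was 2.06 ± 1.07 (limma, adjusted p = 0.634). In secondary neurospheres it was -1.14 ± 1.07 (limma, adjusted p = 0.683), and 0.69 without SN_control 2. A second Bmp4 probe was not well above background on any array and was not used.

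Mesenchymal and mural markers also differed between the groups. The summed level of 8 of 8 genes was 5.19 to 5.21 in SN_NFIA cells, 5.61 to 6.35 in SN_control cells, 4.18 to 4.30 in PN_NFIA cells and 2.04 to 2.92 in PN_control cells. SN_control 2, highest for Bmp4, was also highest here, and PN_control cells were lowest in both. SN_control 1 did not keep this parallel, with the second-highest sum, 5.61, and a Bmp4 level of 1.22, below that of PN_NFIA 2. Collagen genes carry much of the sum: between SN_control and PN_control cells Col1a1 differed by 5.45 and Col3a1 by 4.06, both called (limma). Pdgfrb was called too, at 3.11, which made 3 of 8 genes, against 0.725% of all genes called higher. Col1a2, Twist1 and Prrx1 differed by 3.72, 0.84 and 0.68 without a call. The smooth muscle genes Acta2 and Tagln differed by -0.55 and -0.40, also without a call. The part of these markers in the Bmp4 levels was not tested.

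**Figure D3:**
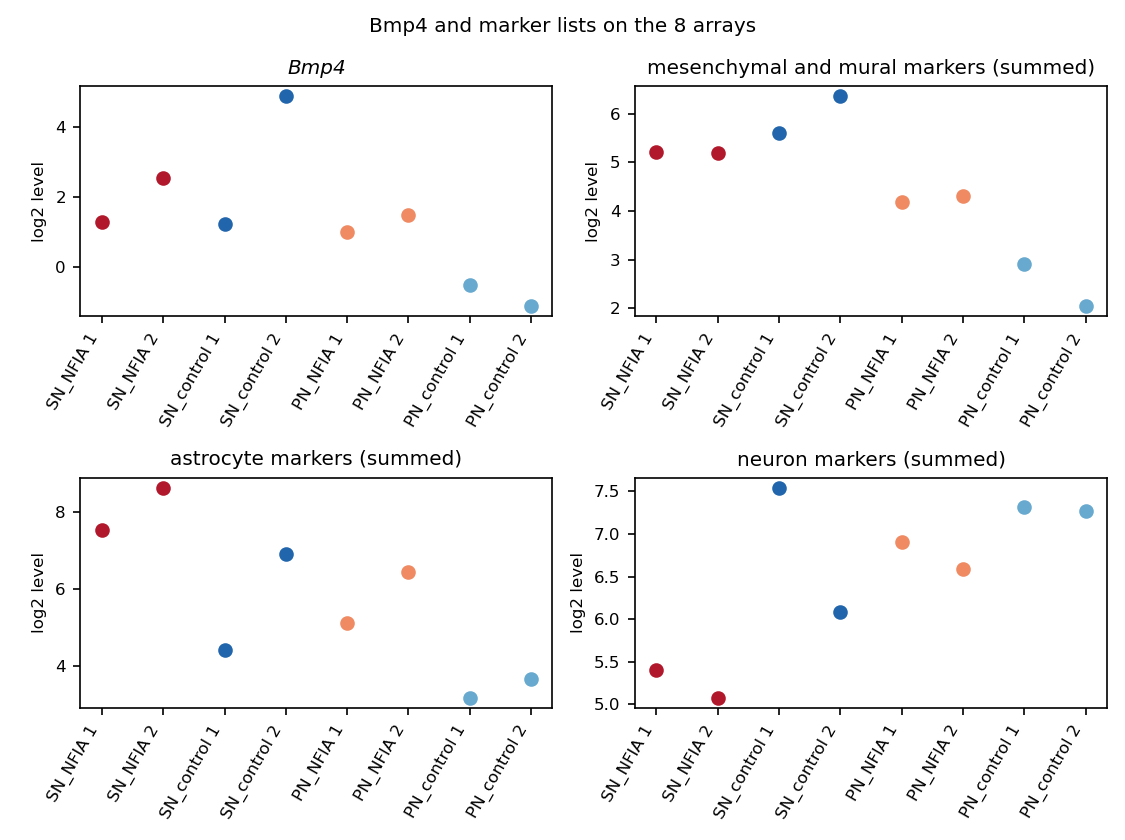
Bmp4 level and summed levels of the mesenchymal and mural, astrocyte and neuron marker lists on each of the 8 arrays (log2, relative to the 75th percentile of the array). SN_control 2 has the highest Bmp4 level, 4.87, and the highest mesenchymal and mural level, 6.35.

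Bmp7, a ligand of the BMP5/6/7 subgroup, read 0.81 and 1.24 in SN_NFIA cells, 0.81 and 1.23 in SN_control cells, 0.55 and -0.07 in PN_NFIA cells, and 0.00 and -0.28 in PN_control cells. Levels in NFIA and control cells were close at the secondary stage, with a fold of 1.0 and a 95% interval of 0.592 to 1.7.

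The second question was how the genes differ between passages. In NFIA cells Id3 and Smad9 rose in secondary neurospheres, 2 of 10 genes, against 0.544% of all genes, with 0 of 10 lower, against 1.34%. Id2, Id3, Id4, Smad9 and Bmp7 were higher without overlap, 5 of 10 genes, against 25.8% of all genes, and Smad1 was lower, 1 of 10, against 31.3%. Id3 was 3.93-fold higher in SN_NFIA than in PN_NFIA cells (1.98 ± 0.24, limma, adjusted p = 0.0229), and Smad9 2.59-fold higher (1.37 ± 0.24, adjusted p = 0.0461). Without either PN_NFIA, SN_NFIA or PN_control array, neither call remained (limma, adjusted p between 0.0618 and 0.191 for Id3 and between 0.0966 and 0.335 for Smad9). With normexp the Smad9 difference was 0.35 (limma, adjusted p = 0.485).

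In control cells 0 of 10 genes were called, against 0.863% of all genes, and 4 of 10 had an unadjusted p under 0.05 in limma, against 13.5%. The Id genes ran the other way there, with SN_control minus PN_control differences of -0.48 for Id1, -0.85 for Id2, -0.64 for Id3 and -1.26 for Id4. All 4 Id genes were lower on both SN_control arrays than on both PN_control arrays, 4 of 10 genes, against 26.9% of all genes. Smad9, Smad7, Bmp4 and Bmp7 were higher without overlap, 4 of 10 genes, against 16%. Bmp4 differed by 3.88 ± 1.07 (limma, adjusted p = 0.195). Without SN_control 1 it differed by 5.70 (limma, adjusted p = 0.0101), and Id4 by -2.16 (adjusted p = 0.0384). Smad9 was then called too (limma, adjusted p = 0.0455), but neither control group was well above background.

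Over both cell types Smad9 and Bmp7 were called higher in secondary neurospheres, 2 of 10 genes, against 3.42% of all genes. Bmp7 was 1.96-fold higher (95% interval 1.37 to 2.81; 0.97 ± 0.22, limma, adjusted p = 0.0426), and SN arrays lay above PN arrays in each cell type. When arrays were left out in turn, its call remained only without SN_control 1 (limma, adjusted p = 0.0452), and the other 7 gave adjusted p between 0.0645 and 0.117. The call was also lost with no filter on dim probes (limma, adjusted p = 0.0578). Smad9 had an adjusted p of 0.0131 in limma, and of 0.0521 without PN_NFIA 1, but no size is given, since no control array of either passage was well above background.

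**Figure D4:**
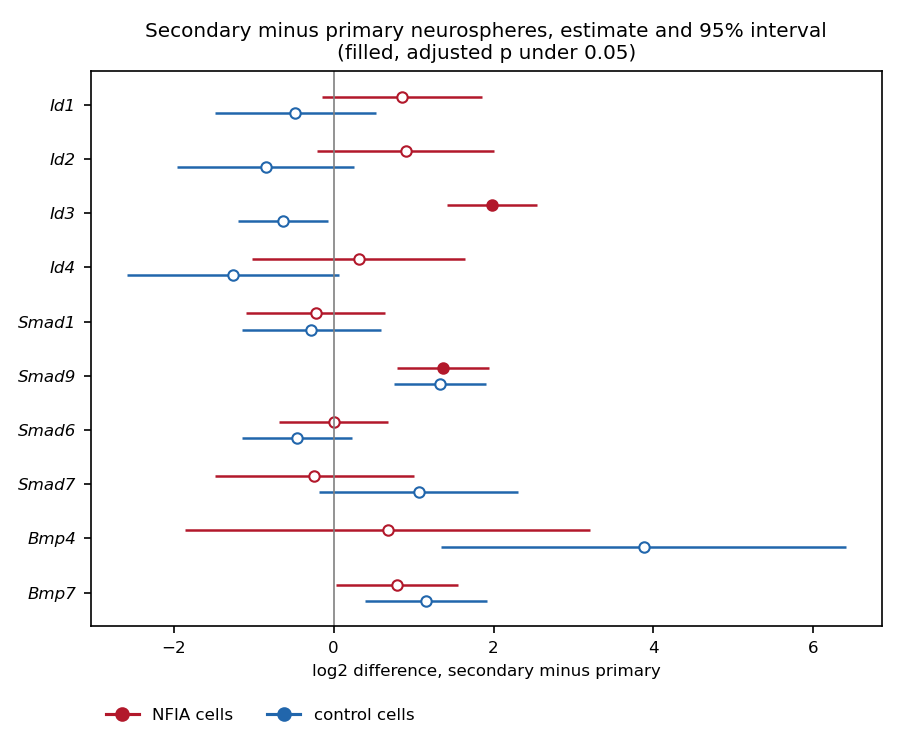
Log2 difference, secondary minus primary neurospheres, for each gene in NFIA and in control cells, with 95% intervals from limma. Filled symbols had an adjusted p under 0.05: Id3 and Smad9 in NFIA cells. The 4 Id genes lie right of 0 in NFIA cells and left of 0 in control cells.

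The rest of the pathway was described from 6 lists of 68 other genes, of which 54 were tested. For NFIA against control over both passages 1 of 54 rose, against 1.78% of all genes, and 0 fell. The gene was Gdf5, a ligand known from joint development, at -2.77 and -2.76 in SN_NFIA cells, -3.78 and -4.33 in SN_control cells, -2.72 and -2.71 in PN_NFIA cells, and -4.50 and -3.50 in PN_control cells. Its 4 NFIA arrays lay within a narrow range above all control arrays, 3 of which were not well above background. Gdf5 passed the filter on dim probes through the NFIA groups alone, so its call is not independent of that filter. The fitted difference, 1.29 ± 0.25 (limma, adjusted p = 0.0465), rests on control values near background. In secondary neurospheres, where no control array was well above background, Gdf5 was at least 2.05-fold higher in NFIA cells.

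Bmp5, a ligand related to Bmp7, read -1.01 and -1.35 in SN_NFIA cells, -1.75 and -1.96 in SN_control cells, -1.53 and -1.62 in PN_NFIA cells, and -3.61 and -3.65 in PN_control cells. PN_control cells were lowest, far below the other 6 arrays. It rose with NFIA in primary neurospheres (2.05 ± 0.24, limma, adjusted p = 0.0272), 1 of 54 genes, against 0.312% of all genes, and with passage in control cells (1.77 ± 0.24, adjusted p = 0.0342), also 1 of 54, against 0.725% of all genes. These comparisons share the PN_control arrays. In secondary neurospheres 0 of 54 genes were called for NFIA in limma, against 0.486% of all genes higher and 0.45% lower.

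By list, the median NFIA difference over both passages was 0.46 for other ligands (6 of 11 tested), 0.32 for receptors and co-receptors (10 of 12), -0.11 for antagonists and extracellular modulators (12 of 13), -0.07 for other SMADs and their regulators (10 of 10), 0.15 for other BMP-responsive targets (8 of 11) and -0.24 for bHLH partners of ID proteins (8 of 11), against -0.05 over all genes. The smallest p-values after the ligands belonged to Nbl1 (1.72 ± 0.44, limma, adjusted p = 0.11) and Bmp1 (0.70 ± 0.20, 0.129), an antagonist and a protease that cleaves the antagonist chordin. Among receptors they belonged to the co-receptor gene Eng (limma, adjusted p = 0.189) and to Neo1 (0.49 ± 0.17, 0.2). Eng was well above background on 2 of 4 NFIA arrays, both of them PN_NFIA, and on none of the control arrays. It was at least 2.05-fold higher in PN_NFIA than in PN_control cells. No size is given for secondary neurospheres, where no array was well above background. Among other targets they were those of Atoh8 (0.78 ± 0.29, limma, adjusted p = 0.228) and Gata2 (-1.32 ± 0.54, 0.26), both transcription factors. Atoh8 was not well above background on any secondary array, and was so on only 1 of 2 PN_control arrays. For SMAD regulators these were Skil (-0.38 ± 0.17, limma, adjusted p = 0.31) and Smad2 (-0.37 ± 0.20, 0.392), a co-repressor and a SMAD of the TGF-beta branch. Among bHLH partners, the proneural gene Neurod1 had a difference of -0.72 ± 0.41 (limma, adjusted p = 0.417).

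**Figure D5:**
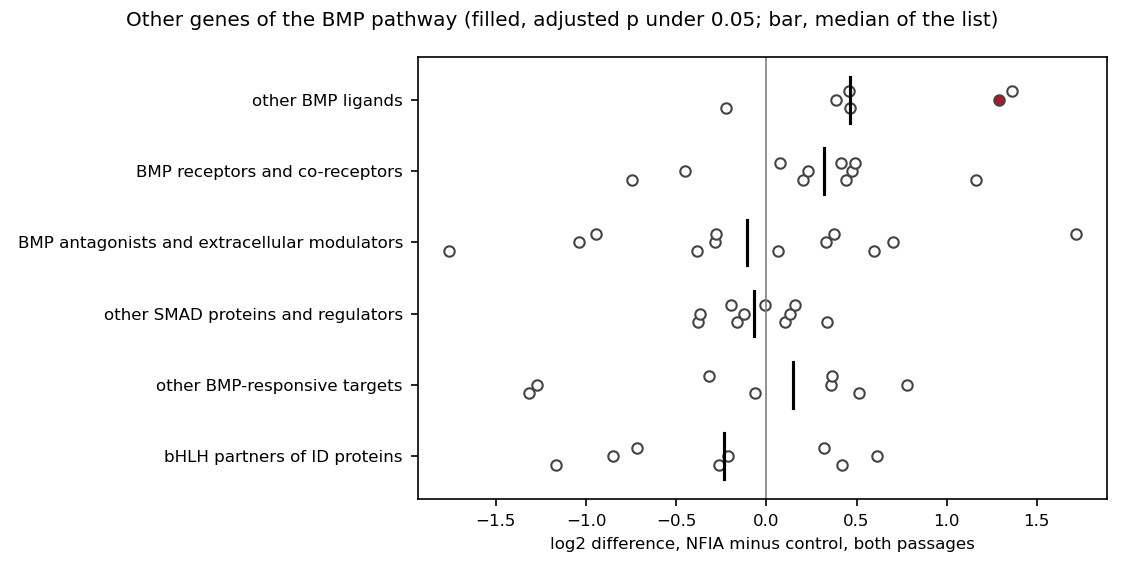
Log2 difference, NFIA minus control over both passages, for the 54 tested genes of 6 pathway lists. Each point is a gene, bars are list medians, and the filled point is Gdf5, the gene with an adjusted p under 0.05.

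Between passages, over both cell types, 3 of 54 rose and 2 fell, against 3.42% and 3.9% of all genes. Those that rose were the ligand gene Bmp2 (1.40 ± 0.32, limma, adjusted p = 0.0432), Nbl1 (1.83 ± 0.44, 0.0495) and Olig1, an oligodendrocyte lineage factor (4.16 ± 0.70, 0.0226). Those that fell were the receptor gene Acvr2b (-1.28 ± 0.31, limma, adjusted p = 0.0477) and Neurod1 (-3.09 ± 0.41, 0.0144). Neurod1 was not well above background on any secondary array, and was at least 4.10-fold lower in SN_NFIA than in PN_NFIA cells and at least 5.21-fold lower in SN_control than in PN_control cells.

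Genes whose profile over the 8 arrays was most like those of Id1, Id3 and Smad9 were found by the root mean square difference between centred log2 profiles, among all other genes tested. For Id1 they were Lrrc75b (0.232), Ston2 (0.245) and Nudt7 (0.250). For Id3 they were Nr1d1 (0.252), Msra (0.275) and Phgdh (0.317), which encode a circadian nuclear receptor, a methionine sulfoxide reductase and the first enzyme of serine synthesis. For Smad9 they were Cebpa (0.213), Adamts8 (0.254) and Lynx1 (0.268), which encode a transcription factor, a secreted protease and a modulator of nicotinic receptors. Cebpa, like Smad9, was not well above background on any control array. Nr1d1 was not well above background on PN_control 1 or on either SN_control array. The likeness of these genes thus rests partly on values near background. These arrays share 1 slide and the same groups, and the likeness is a description.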

How the data were processed

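RNA of sorted cells (50 ng per sample) was labelled with Cy3 and hybridised to 8 one-colour Agilent arrays on 1 slide. The deposited scanner files hold background-subtracted intensity per spot from Feature Extraction 10.5.1.1, per the file headers, and 0 or 1 flags of other kinds for signal above background and outliers. The submitters' processing notes name version 10.7.3.1. The authors' deposited value table holds log2 values, centred on each probe's median, and its columns matched 1 scanner file each (r at least 0.9999, against at most 0.3386 for any other).

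Intensities were taken to log2 and each array's 75th percentile was subtracted (302.5 to 619.1 units; 45.4% to 56.4% of spots well above background). A probe was kept if some group had it well above background on both its arrays, 126 outlier-flagged probes were left out, and a gene was read from its brightest kept probe. The 10 genes had 12 probes, 11 kept. The test was limma's (version 3.58.1, R 4.3.3), in a model of 4 group means and in an additive model of passage and NFIA, with Benjamini-Hochberg adjustment over 13790 genes and a threshold of 0.05. The test was checked on simulated arrays. The genes, lists and tests were chosen with earlier results of these data known. All 10 genes are named, and of the other lists each gene called in an NFIA or passage comparison and the 2 with the smallest p per list, except a gene that is not reported here. The files hold no mean-signal column, so normexp used median signals (offset 50), chosen after seeing the data. Array number limits the precision.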

Additional observations from a re-analysis of the deposited data

Results flagged for a closer look

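Id3 and Id2 stood out because both SN_NFIA arrays were above both SN_control arrays, while both PN_NFIA arrays were below both PN_control arrays, a pattern that 2.65% of all 13790 genes showed. The NFIA effect in secondary minus that in primary neurospheres was 2.61 ± 0.34 (log2, SE) for Id3 and 1.75 ± 0.66 for Id2. The test of this difference did not pass for either gene over 13790 genes (limma, adjusted p = 0.107 for Id3 and 0.68 for Id2). Without each array in turn the difference for Id3 ranged between 2.47 and 2.75, and that for Id2 between 1.096 and 2.40.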

How the results depend on the processing

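The 21 alternative settings gave 1366 values for single genes, of which 122 changed sign, 116 of them with no call under either setting and 72 under the attached files or the source names. Called values that turned were, by the source names, Smad9 for NFIA over both passages (-1.54), in primary (-1.42) and in secondary neurospheres (-1.66) and Id3 in secondary neurospheres (-1.51), and, by the attached files, Id3 in secondary neurospheres (-1.48) and with passage in NFIA cells (-0.24). The source-name grouping counts the 4 arrays titled control as NFIA, so turns are built into it.

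Genes of the 10 called were as follows. For NFIA over both passages, 1 was called, and 0 with normexp, with probes well above background on all 8 arrays (Smad9 is then not tested), by the attached files or by the source names. In primary neurospheres 1 was called, and 0 under those 4 settings, with quantile normalization, with no filter on dim probes or without both arrays titled NFIA with a WT source name. In secondary neurospheres 2 were called, 1 with no filter on dim probes or with the all-array filter, and 0 with only the groups compared, by the attached files, by the source names or without the WT-named arrays. For passage in NFIA cells 2 were called, 1 with normexp, quantile, no filter or the all-array filter, and 0 with only the groups compared, by the attached files or without the WT-named arrays. For passage over both cell types 2 were called, 1 with normexp, quantile, no filter, the all-array filter or the replicate block, and 0 by the attached files or without the WT-named arrays. Leaving out each array in turn gave 1 to 1 for NFIA over both passages, 0 to 1 in primary and 0 to 2 in secondary neurospheres, 0 to 2 for passage in NFIA cells, 0 to 3 in control cells (3 without SN_control 1) and 0 to 2 over both cell types.

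Over all genes, 271 were called for NFIA over both passages and 129 in secondary neurospheres. These counts were 143 and 22 with no filter, 33 to 351 and 7 to 458 when arrays were left out in turn, and 0 and 0 by the attached files.

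Replicate numbers were shared between groups, but no source says that they mark a shared culture, and a passage holds only 2 pairs. Same-numbered arrays deviated together within a passage (r = 0.445 in primary and 0.484 in secondary neurospheres) and not between passages (0.042 in NFIA and -0.188 in control cells). The fit with the replicate block called 2 genes in secondary neurospheres and 1 for passage over both cell types, where Bmp7 lost its call (limma, adjusted p = 0.0541), and a block within each passage called 3 in secondary neurospheres. With the numbers crossed in secondary neurospheres, chosen after seeing the data, 1, 1 and 2 were called for NFIA over both passages, in primary and in secondary neurospheres.

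Smad9 lay near background, which limits its fold. With 2 arrays a group, a lone array left after leaving out its pair was assumed to vary like the other groups.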
